A study of Mus musculus with 31 samples.

Results

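Krt15, Cd34, Lgr5, Lgr6, Sox9, Lhx2, Nfatc1 and Tbx1 are genes used to mark or to study the stem cells of the hair follicle bulge. They were followed here in mouse skin during topical treatment with 2 JAK inhibitors. A probe set counted for a gene when the probe table gave it that single symbol, and of several the brightest on average represented the gene. All 8 genes were found, among 18193 genes measured in the same way, and together they had 16 probe sets.

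The skin came from C3H/HeJ mice, an inbred strain used as a model of alopecia areata, an autoimmune hair loss. AA in the series title was read as that disease, which all groups, PBS included, then shared as an established condition. The 31 arrays fall into 11 groups. Mice received PBS, jak1i or jak3i on the skin, and 3 arrays were made for each arm at 0, 6 and 12 weeks, with 2 more for each inhibitor at 24 weeks. None of the 31 arrays came from skin treated with PBS for 24 weeks. The inhibitors are known only by these codes, and the labels name no dose, sex or age. The replicates are called biological by the submitters, whether a mouse gave skin at more than 1 time is not stated, and all p-values measure only the spread between these samples.

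The bulge is the part of the outer root sheath below the sebaceous gland in which the follicle's stem cells rest between growth phases. When a growth phase (anagen) begins, Wnt signals that R-spondins strengthen act on these cells and on the germ below them, and new matrix, inner root sheath and hair shaft are built. In the resting phase (telogen) the shaft-forming layers regress while the bulge persists. Krt15 encodes a type I keratin of the bulge, and Cd34 a sialomucin on bulge cells of the mouse that endothelium, fibroblasts and mast cells carry too. Lgr5 and Lgr6 are R-spondin receptors, Lgr5 of the lower bulge and germ and Lgr6 of the isthmus above the bulge and of the interfollicular epidermis. Sox9, Lhx2, Nfatc1 and Tbx1 encode transcription factors that specify or maintain bulge cells or, for Nfatc1, hold them in quiescence.

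RefSeq promoter windows, from 250 bases before to 50 bases after an annotated start on GRCm38.p6, were matched for 4 of the 8 genes, with 6 windows in all. The windows of Cd34 and Lgr6 are printed because both genes were higher under the inhibitors in the results below, and a window of Tbx1 because its gene was not. Capitals mark the match to a motif.
Cd34, chr1:194938571-194938870, plus strand: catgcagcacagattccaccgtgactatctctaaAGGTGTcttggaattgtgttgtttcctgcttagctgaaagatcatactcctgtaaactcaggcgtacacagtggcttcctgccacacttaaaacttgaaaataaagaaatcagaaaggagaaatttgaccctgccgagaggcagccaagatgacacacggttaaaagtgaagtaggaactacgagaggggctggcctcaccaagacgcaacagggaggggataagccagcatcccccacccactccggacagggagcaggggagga
Lgr6, chr1:135105227-135105526, minus strand: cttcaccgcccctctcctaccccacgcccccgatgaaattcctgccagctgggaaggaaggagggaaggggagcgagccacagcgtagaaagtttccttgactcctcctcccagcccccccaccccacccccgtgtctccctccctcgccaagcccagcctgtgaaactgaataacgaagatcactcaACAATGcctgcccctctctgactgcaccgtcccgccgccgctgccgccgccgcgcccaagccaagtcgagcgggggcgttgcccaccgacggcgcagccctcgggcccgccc
Tbx1, chr16:18590622-18590921, minus strand: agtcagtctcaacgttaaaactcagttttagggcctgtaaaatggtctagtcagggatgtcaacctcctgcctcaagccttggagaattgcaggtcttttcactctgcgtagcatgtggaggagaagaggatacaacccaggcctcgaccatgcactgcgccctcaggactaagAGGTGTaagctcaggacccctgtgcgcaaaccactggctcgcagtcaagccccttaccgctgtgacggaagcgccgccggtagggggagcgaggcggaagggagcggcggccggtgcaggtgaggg
The letters searched on both strands, with the share of all 32851 windows that hold them, were CTTTGA for TCF/LEF factors (16%), TAATTA for LIM homeodomains (5.29%), GGAAAA for NFAT (23.4%), AGGTGT for T-box factors (13.7%), ACAATG for SOX factors (12.6%) and TTCNNNGAA for STAT factors (8.30%). The Cd34 window holds AGGTGT at position -216 from the start, and the printed Tbx1 window holds it at -76. The other Tbx1 window and the first Lhx2 window hold none of the letters searched. The Lgr6 window holds ACAATG at -62. A window of Lhx2, not printed, holds GGAAAA at -139 on the opposite strand, and none of the 6 windows holds the STAT letters. These matches describe the letters and show no binding.

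Values are log2 RMA signals, and differences are differences of group means on that scale, with the standard error (SE). A gene was called where limma's Benjamini-Hochberg adjusted p over all 18193 genes was under 0.05. The number of arrays limits the precision. All 6 epidermal markers and all 8 markers of the outer root sheath lay above the median of all values on every array. In bulk skin, fewer cells of a type and less RNA per cell cannot be told apart.

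Several marker lists moved with the groups that are compared below. A list mean is given relative to the mean of the 31 arrays. Hair shaft and matrix genes averaged between 0.66 and 2.03 in the PBS arrays at 12 weeks, between -2.22 and -0.87 under jak1i at 12 weeks and between -2.69 and -1.07 under jak3i at 12 weeks. T and killer lymphocyte genes averaged between 0.56 and 1.40 in those PBS arrays, against -1.19 to -0.57 under jak1i and -1.53 to -0.95 under jak3i. Skeletal muscle genes averaged -6.09, -2.77 and -4.33 in the 3 PBS arrays at 12 weeks and between -0.61 and 1.58 in the other arrays, so this control group stands apart from all others. Sebaceous gland genes averaged -1.08 in each of these 3 PBS arrays, 0.42 to 0.97 under jak1i and 0.44 to 0.76 under jak3i at 12 weeks. Cell cycle genes averaged between 0.52 and 0.87 in these PBS arrays, between -0.47 and 0.41 under jak1i and between -0.80 and -0.23 under jak3i. The inhibitor arrays of 12 weeks did not overlap those of PBS for any of these 5 lists.

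After 12 weeks, 4 of the 8 genes were higher under jak1i than under PBS, Krt15, Lgr6, Lhx2 and Nfatc1, where 6.85% of all genes tested were called higher. Under jak3i at 12 weeks 4 of 8 were higher, Krt15, Lgr6, Nfatc1 and Cd34, where 10.0% of all genes were called higher. None was called lower. The largest of these differences were 1.78 (SE 0.37) for Krt15 under jak1i, a fold of 3.44, and 1.45 (SE 0.44) for Lgr6 under jak3i, a fold of 2.73. The median difference of the 8 genes was 1.04 under jak1i and 1.12 under jak3i, beside -0.03 over all genes in each comparison. The arrays of the compared groups did not overlap for 6 of the 8 genes under jak1i, where 36.2% of all genes did not overlap, and for 5 of the 8 under jak3i, where 38.3% did not. Both comparisons use the same 3 PBS arrays.

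**Figure D1:**
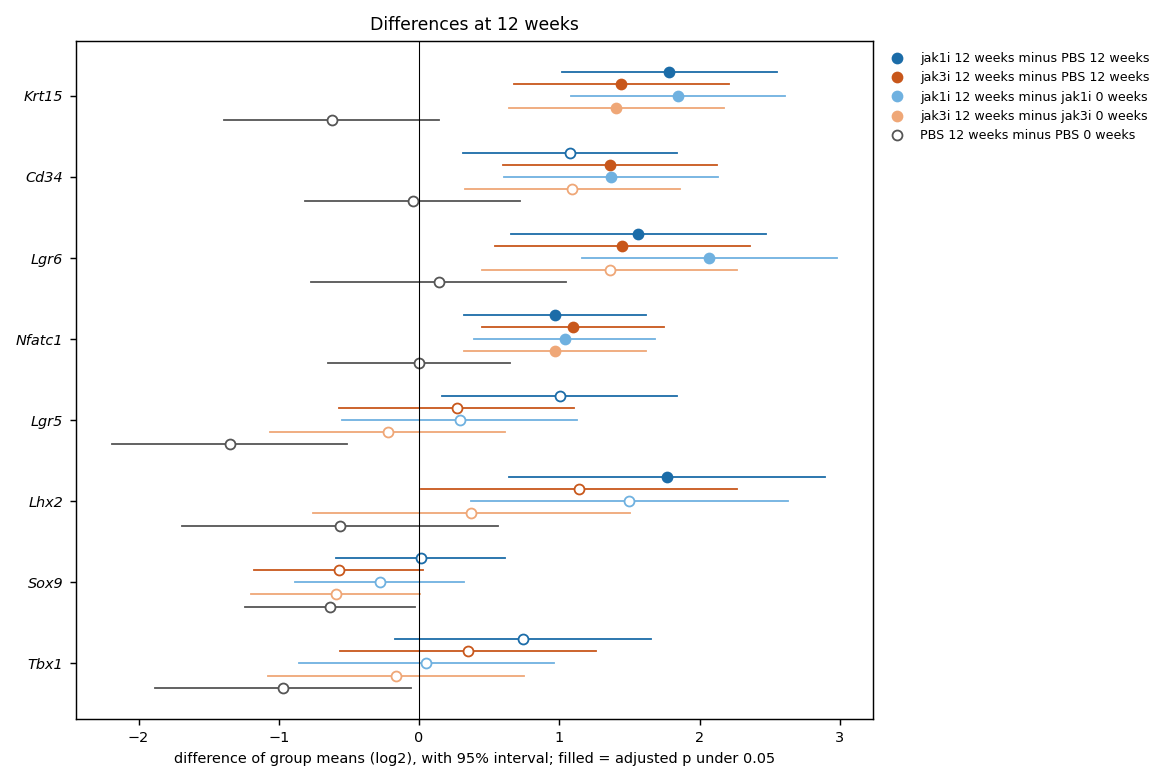
Difference of group means at 12 weeks (log2, x axis) for each of the 8 genes, with its 95% interval, for 5 comparisons in colours. Filled points have an adjusted p under 0.05. Krt15, Lgr6, Cd34 and Nfatc1 lie right of 0 in all 4 inhibitor comparisons, while Sox9 lies at or left of 0.01.

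Against the skin of the same arm before treatment, 4 of 8 genes were higher after 12 weeks of jak1i, Krt15, Cd34, Lgr6 and Nfatc1, where 9.76% of all genes were called higher. After 12 weeks of jak3i, 2 of 8 were higher than at 0 weeks, Krt15 and Nfatc1, where 7.41% of all genes were. Krt15 and Nfatc1 thus passed in all 4 inhibitor comparisons at 12 weeks. Centring each array on its median changed none of these counts of the 8 genes, but it changed the background. Of the calls for jak3i against PBS, 57.9% were higher, and 29.3% after centring, with 6.88% of all genes called higher. Of the calls for jak3i against its start, 72.2% were higher, and 23.7% after centring, with 3.96% of all genes called higher. With centring the median difference over all genes went from -0.035 to -0.17 for jak3i against PBS. Against the start of jak3i it went from -0.0015 to -0.17.

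Krt15 (chr11:100131759-100135949, GRCm38.p6) is the structural keratin among the 8. Krt15 read 12.41, 12.34 and 12.41 at 0 weeks, 12.55, 12.36 and 11.90 at 6 weeks, and 11.90, 11.68 and 11.71 at 12 weeks in the PBS arrays. Krt15 under jak1i read 11.21, 12.75 and 11.14 at 0 weeks, 13.43, 12.50 and 13.11 at 6 weeks, 13.53, 13.58 and 13.54 at 12 weeks, and 12.73 and 13.54 at 24 weeks. Krt15 under jak3i read 11.74, 11.29 and 12.36 at 0 weeks, 12.89, 13.49 and 13.15 at 6 weeks, 13.34, 13.24 and 13.04 at 12 weeks, and 12.21 and 13.66 at 24 weeks. At 12 weeks all arrays of each inhibitor lie above every PBS array of any week, and the 3 jak1i arrays lie within 0.1 of each other. The 3 PBS arrays at 12 weeks all lie below those at 0 weeks. Against PBS at 12 weeks the difference was 1.78 (SE 0.37) for jak1i with an adjusted p of 0.00472, and 1.44 (SE 0.37) for jak3i with an adjusted p of 0.0134. Against its own start jak1i differed by 1.85 (SE 0.37, adjusted p 0.00382) and jak3i by 1.41 (SE 0.37, adjusted p 0.0294). The jak1i calls held whichever single array was left out, with an adjusted p of at most 0.0304 against PBS and 0.0256 against its start. The jak3i call against PBS ended without jak3i replicate 1 (adjusted p 0.0574) or PBS replicate 3 (0.0523) at 12 weeks. Against its start it ended without jak3i replicate 1 (0.068) or 2 (0.142) at 0 weeks, or replicate 1 (0.0926) or 2 (0.0869) at 12 weeks.

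Cd34 (chr1:194938821-194961292), the surface sialomucin, was higher under jak3i than under PBS at 12 weeks, and higher under jak1i than before treatment. Cd34 read 10.11, 9.64 and 9.91 at 0 weeks, 10.94, 9.03 and 9.91 at 6 weeks, and 9.39, 10.35 and 9.78 at 12 weeks in the PBS arrays. Cd34 under jak1i read 9.37, 9.84 and 9.43 at 0 weeks, 10.89, 9.90 and 10.94 at 6 weeks, 11.17, 10.79 and 10.79 at 12 weeks, and 10.86 and 11.29 at 24 weeks. Cd34 under jak3i read 10.03, 9.68 and 10.62 at 0 weeks, 10.46, 11.27 and 11.04 at 6 weeks, 11.17, 11.26 and 11.17 at 12 weeks, and 10.82 and 11.61 at 24 weeks. Every inhibitor array at 12 weeks lies above the 3 PBS arrays of that week, although PBS replicate 1 at 6 weeks reached the inhibitor range. The difference from PBS was 1.36 (SE 0.37, adjusted p 0.0176) for jak3i and 1.08 (SE 0.37, adjusted p 0.0551) for jak1i. From its own start jak1i differed by 1.37 (SE 0.37, adjusted p 0.0161) and jak3i by 1.09 (SE 0.37, adjusted p 0.0574). The jak3i call ended without jak3i replicate 1 (adjusted p 0.0576) or 2 (0.0509), or PBS replicate 1 (0.0852) or 3 (0.063), at 12 weeks, and the jak1i call without replicate 1 at 0 weeks (0.0631) or 12 weeks (0.0731). Without PBS replicate 2 at 12 weeks the jak1i difference from PBS was 1.33 (adjusted p 0.0298).

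Marker lists of other cell types that carry Cd34 moved with it, and so did other lists. Endothelial genes were higher under jak3i than under PBS for 10 of 12 measured (median 1.39), where 10.0% of all genes were called higher. Among the 10 were Pecam1 at 1.16 and Cdh5 at 1.31, which encode endothelial junction proteins. Under jak1i limma called 0 of 12 against PBS (median 0.61), where 13.4% of all genes were called either way. An unadjusted p under 0.05 was reached by 5 of the 12, beside 5436 of all 18193 genes. Over the 31 arrays the Pearson correlation with Cd34 was 0.92 for the endothelial list mean, 0.87 for the fibroblast mean and 0.87 for the mast cell mean, a description over arrays of 11 groups. Endothelial means ranged from -0.48 to 0.10 in the PBS arrays at 12 weeks, from 0.14 to 0.67 under jak1i and from 0.84 to 1.30 under jak3i. The correlation with Cd34 was also 0.84 for the fat cell mean and 0.82 for the sebaceous gland mean. The endothelial mean had 0.85 with Nfatc1 and 0.84 with Lgr6. The part of these cell types in the Cd34 result was not tested.

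Among the R-spondin receptors, Lgr6 was higher under both inhibitors and Lgr5 was called in no comparison. Lgr6 (chr1:134983300-135105374) had the lowest group mean of each arm at 0 weeks. Lgr6 read 8.24, 7.17 and 7.57 at 0 weeks, 8.60, 7.65 and 8.23 at 6 weeks, and 7.75, 8.49 and 7.17 at 12 weeks in the PBS arrays. Lgr6 under jak1i read 6.87, 7.39 and 7.63 at 0 weeks, 9.69, 8.41 and 9.49 at 6 weeks, 9.61, 8.93 and 9.55 at 12 weeks, and 8.77 and 9.37 at 24 weeks. Lgr6 under jak3i read 8.12, 6.92 and 8.63 at 0 weeks, 8.81, 9.63 and 9.15 at 6 weeks, 9.51, 9.17 and 9.06 at 12 weeks, and 7.92 and 9.19 at 24 weeks. All 12-week inhibitor arrays lie above the 12-week PBS arrays, and all jak1i arrays from 6 weeks on lie above the 3 at the start. The difference from PBS at 12 weeks was 1.56 (SE 0.44, adjusted p 0.0225) for jak1i and 1.45 (SE 0.44, adjusted p 0.0286) for jak3i. Against its start jak1i differed by 2.07 (SE 0.44, adjusted p 0.00513), a fold of 4.19, and this call held whichever array was left out. For jak3i the difference from its start was 1.36 (SE 0.44) with an adjusted p of 0.0502. The jak1i call against PBS ended without jak1i replicate 1 (adjusted p 0.0805) or 3 (0.0768), or PBS replicate 1 (0.0627) or 3 (0.141), at 12 weeks. The jak3i call ended without jak3i replicate 1 (0.105) or 2 (0.065), or PBS replicate 1 (0.0809) or 3 (0.145), all at 12 weeks.

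Lgr5 (chr10:115450314-115587780) had its lowest group mean in PBS skin at 12 weeks. Lgr5 read 9.29, 10.04 and 9.69 at 0 weeks, 9.11, 9.55 and 9.11 at 6 weeks, and 8.40, 8.43 and 8.15 at 12 weeks in the PBS arrays. Lgr5 under jak1i read 8.53, 9.70 and 8.89 at 0 weeks, 8.42, 9.48 and 8.54 at 6 weeks, 8.59, 9.66 and 9.75 at 12 weeks, and 8.78 and 8.96 at 24 weeks. Lgr5 under jak3i read 9.32, 7.98 and 9.16 at 0 weeks, 9.63, 8.47 and 7.97 at 6 weeks, 8.93, 8.28 and 8.57 at 12 weeks, and 8.68 and 8.41 at 24 weeks. The PBS arrays at 12 weeks all lie below the PBS arrays at 0 and 6 weeks, and below the 3 jak1i arrays of 12 weeks, while the jak3i arrays overlap them. Against PBS at 12 weeks the difference was 1.0 (SE 0.40, adjusted p 0.0985) for jak1i and 0.27 (95% interval -0.57 to 1.11) for jak3i. Against its start the difference was 0.29 (95% interval -0.55 to 1.13) for jak1i and -0.22 (95% interval -1.06 to 0.62) for jak3i.

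**Figure D2:**
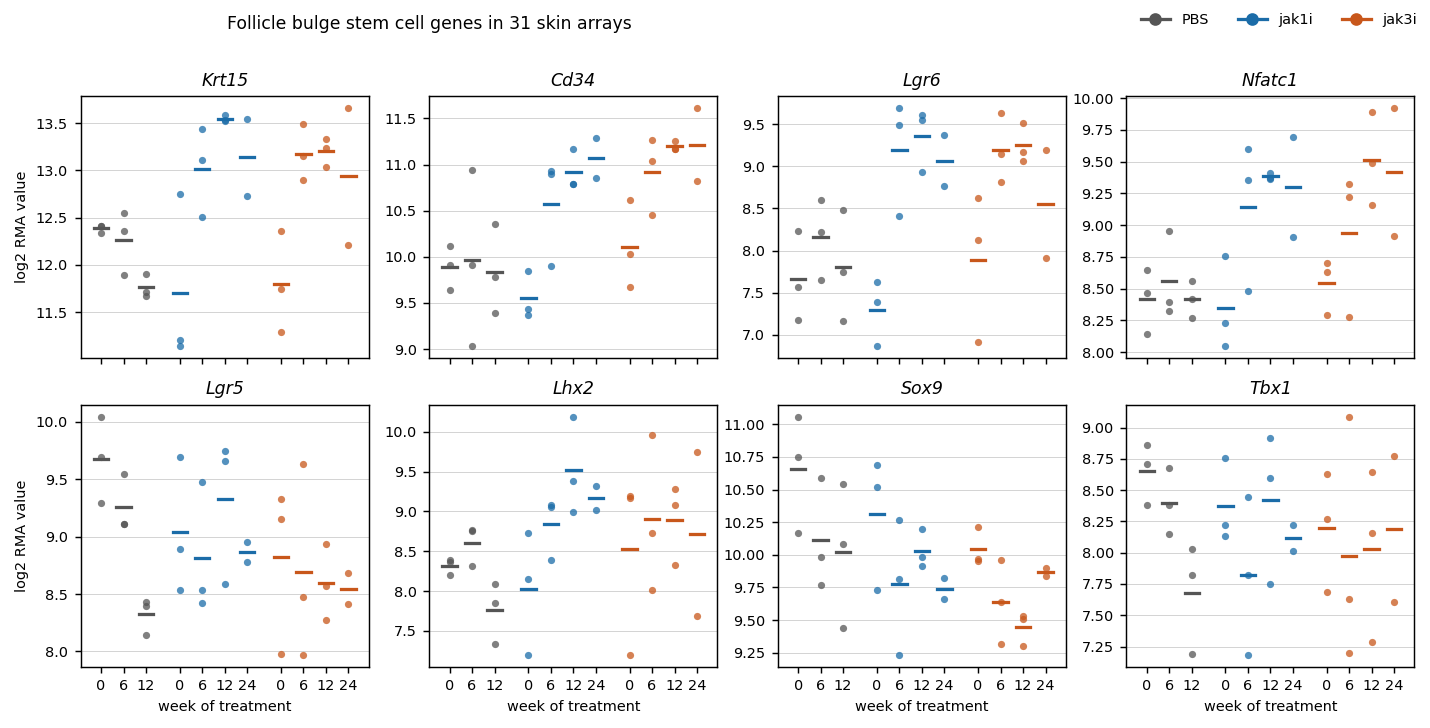
Log2 RMA value (y axis, its range set for each gene) of the 8 genes on all 31 arrays against the week of treatment (x axis). Points are arrays and bars are group means, in grey for PBS, blue for jak1i and orange for jak3i. At 12 weeks all arrays of both inhibitors lie above the 12-week PBS arrays for Krt15, Cd34, Lgr6, Nfatc1 and Lhx2, while Sox9 and Tbx1 under both inhibitors and Lgr5 under jak3i overlap them. The inhibitor arrays of 6 and 24 weeks are spread more widely than those of 12 weeks for Krt15 and Nfatc1.

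Of the transcription factor genes, Nfatc1 passed against PBS and against the start under both inhibitors, and Lhx2 against PBS under jak1i. Nfatc1 (chr18:80606205-80713071) encodes a calcium-regulated factor. Nfatc1 read 8.64, 8.14 and 8.47 at 0 weeks, 8.96, 8.32 and 8.39 at 6 weeks, and 8.42, 8.56 and 8.27 at 12 weeks in the PBS arrays. Nfatc1 under jak1i read 8.23, 8.76 and 8.05 at 0 weeks, 9.60, 8.48 and 9.35 at 6 weeks, 9.37, 9.37 and 9.41 at 12 weeks, and 8.91 and 9.69 at 24 weeks. Nfatc1 under jak3i read 8.29, 8.63 and 8.70 at 0 weeks, 8.27, 9.22 and 9.33 at 6 weeks, 9.89, 9.16 and 9.49 at 12 weeks, and 8.91 and 9.92 at 24 weeks. At 12 weeks the inhibitor arrays lie above all PBS arrays of every week. The difference from PBS at 12 weeks was 0.97 (SE 0.31, adjusted p 0.0436) for jak1i and 1.10 (SE 0.31, adjusted p 0.0219) for jak3i. Against the start it was 1.04 (SE 0.31, adjusted p 0.0282) for jak1i and 0.97 (SE 0.31, adjusted p 0.0496) for jak3i. The jak1i call against PBS and the jak3i call against its start ended whichever of the 6 arrays was left out, with adjusted p from 0.0501 to 0.155 and from 0.0588 to 0.174. The jak1i call against its start held only without replicate 2 at 0 weeks, and reached an adjusted p of 0.0973 otherwise. The jak3i call against PBS ended without jak3i replicate 1 (0.107) or PBS replicate 1 (0.0627) or 3 (0.0842), at 12 weeks.

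Lhx2 (chr2:38339271-38369737), a LIM homeobox gene, had its lowest group mean in PBS skin at 12 weeks and its highest under jak1i at 12 weeks. Lhx2 read 8.36, 8.39 and 8.21 at 0 weeks, 8.75, 8.31 and 8.76 at 6 weeks, and 7.34, 8.08 and 7.85 at 12 weeks in the PBS arrays. Lhx2 under jak1i read 7.20, 8.15 and 8.73 at 0 weeks, 9.06, 9.08 and 8.38 at 6 weeks, 8.99, 9.39 and 10.19 at 12 weeks, and 9.02 and 9.32 at 24 weeks. Lhx2 under jak3i read 9.20, 7.20 and 9.17 at 0 weeks, 9.96, 8.73 and 8.01 at 6 weeks, 9.28, 8.33 and 9.08 at 12 weeks, and 7.68 and 9.75 at 24 weeks. The 12-week arrays of both inhibitors lie above those of PBS, but the jak3i arrays at 0 weeks already ranged from 7.20 to 9.20. The difference from PBS was 1.77 (SE 0.54, adjusted p 0.0352) for jak1i and 1.14 (SE 0.54, adjusted p 0.145) for jak3i. From its own start jak1i differed by 1.50 (SE 0.54, adjusted p 0.0618) and jak3i by 0.37 (95% interval -0.76 to 1.50). The jak1i call ended without jak1i replicate 2 (adjusted p 0.0694) or 3 (0.141), or PBS replicate 1 (0.119) or 3 (0.103), at 12 weeks.

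Sox9 (chr11:112782210-112787757), which marks the outer root sheath as well as the bulge, and Tbx1 (chr16:18580979-18590671), a T-box gene, were called in no comparison. Sox9 read 10.17, 11.06 and 10.75 at 0 weeks, 9.98, 10.59 and 9.77 at 6 weeks, and 10.54, 9.44 and 10.08 at 12 weeks in the PBS arrays. Sox9 under jak1i read 10.52, 10.69 and 9.73 at 0 weeks, 9.81, 10.27 and 9.23 at 6 weeks, 9.91, 10.20 and 9.99 at 12 weeks, and 9.66 and 9.82 at 24 weeks. Sox9 under jak3i read 9.97, 10.21 and 9.95 at 0 weeks, 9.96, 9.64 and 9.32 at 6 weeks, 9.53, 9.30 and 9.51 at 12 weeks, and 9.90 and 9.84 at 24 weeks. The 3 jak3i arrays at 12 weeks lie below those of jak3i at 0 weeks and of jak1i at 12 weeks. The difference of Sox9 from PBS at 12 weeks was 0.01 (95% interval -0.59 to 0.61) for jak1i and -0.57 (95% interval -1.18 to 0.03) for jak3i. Its difference from the start was -0.28 (95% interval -0.89 to 0.32) for jak1i and -0.59 (SE 0.29, adjusted p 0.161) for jak3i. Without PBS replicate 2 at 12 weeks the jak3i difference from PBS was -0.87 (adjusted p 0.0479).

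For Tbx1 the SD between replicates within groups, 0.57, was wider than that between group means, 0.29. The same held for Lhx2 (0.71 and 0.50), Lgr5 (0.52 and 0.39) and Sox9 (0.37 and 0.33). Tbx1 read 8.38, 8.86 and 8.71 at 0 weeks, 8.15, 8.67 and 8.38 at 6 weeks, and 7.82, 7.19 and 8.03 at 12 weeks in the PBS arrays. Tbx1 under jak1i read 8.22, 8.76 and 8.13 at 0 weeks, 7.82, 8.45 and 7.19 at 6 weeks, 7.75, 8.60 and 8.92 at 12 weeks, and 8.01 and 8.22 at 24 weeks. Tbx1 under jak3i read 8.63, 7.68 and 8.27 at 0 weeks, 9.09, 7.63 and 7.20 at 6 weeks, 8.64, 7.29 and 8.16 at 12 weeks, and 7.60 and 8.78 at 24 weeks. The PBS arrays at 12 weeks lie below the PBS arrays of earlier weeks, and the inhibitor groups overlap each other and PBS at 12 weeks. The difference of Tbx1 from PBS at 12 weeks was 0.74 (95% interval -0.17 to 1.65) for jak1i and 0.35 (95% interval -0.56 to 1.26) for jak3i.

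The earlier time was read in 2 ways. Against the start, 2 of 8 genes were higher after 6 weeks of jak1i, Krt15 by 1.31 (SE 0.37, adjusted p 0.0247) and Lgr6 by 1.90 (SE 0.44, adjusted p 0.00993), where 5.94% of all genes were called higher. After 6 weeks of jak3i 1 of 8 was higher, Krt15 by 1.38 (SE 0.37, adjusted p 0.0447), where 1.10% of all genes were called higher. Of all jak3i calls at 6 weeks 34.9% were higher, and 46.3% after centring the arrays. Against PBS at 6 weeks 0 of 8 genes were called for jak1i (1.36% of all genes called either way) and 0 of 8 for jak3i (1.94% of all genes). Differences from PBS at 6 weeks were 0.75 and 0.91 for Krt15, 0.61 and 0.96 for Cd34, and 1.04 and 1.04 for Lgr6 under jak1i and jak3i. At an unadjusted p under 0.05, 1 of the 8 genes passed for jak1i and 3 for jak3i, beside 3169 and 3082 of all 18193 genes.

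These 6-week calls rested on few arrays. Leaving out jak1i replicate 2 of 6 weeks raised the jak1i count against the start from 2 to 4 of 8, with Cd34 at 1.37 (adjusted p 0.0221) and Nfatc1 at 1.13 (0.0215), and leaving out replicate 1 lowered it to 0. Over all 18193 genes the calls either way moved alike, from 2250 to 2996 without replicate 2 and to 506 without replicate 1. Without jak1i replicate 1 or 3 of 0 weeks, or replicate 3 of 6 weeks, it was 1 of 8, with 926, 1529 and 943 of all genes called. Without jak3i replicate 1 of 6 weeks, or replicate 3 of 0 weeks, the jak3i count was 2, and without any of the other 4 arrays it was 0. All-gene calls for jak3i, 573 with every array, were 2463 and 1020 in the former fits and between 73 and 286 in the latter, so the jak3i counts of the 8 genes moved with those of all genes.

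**Figure D3:**
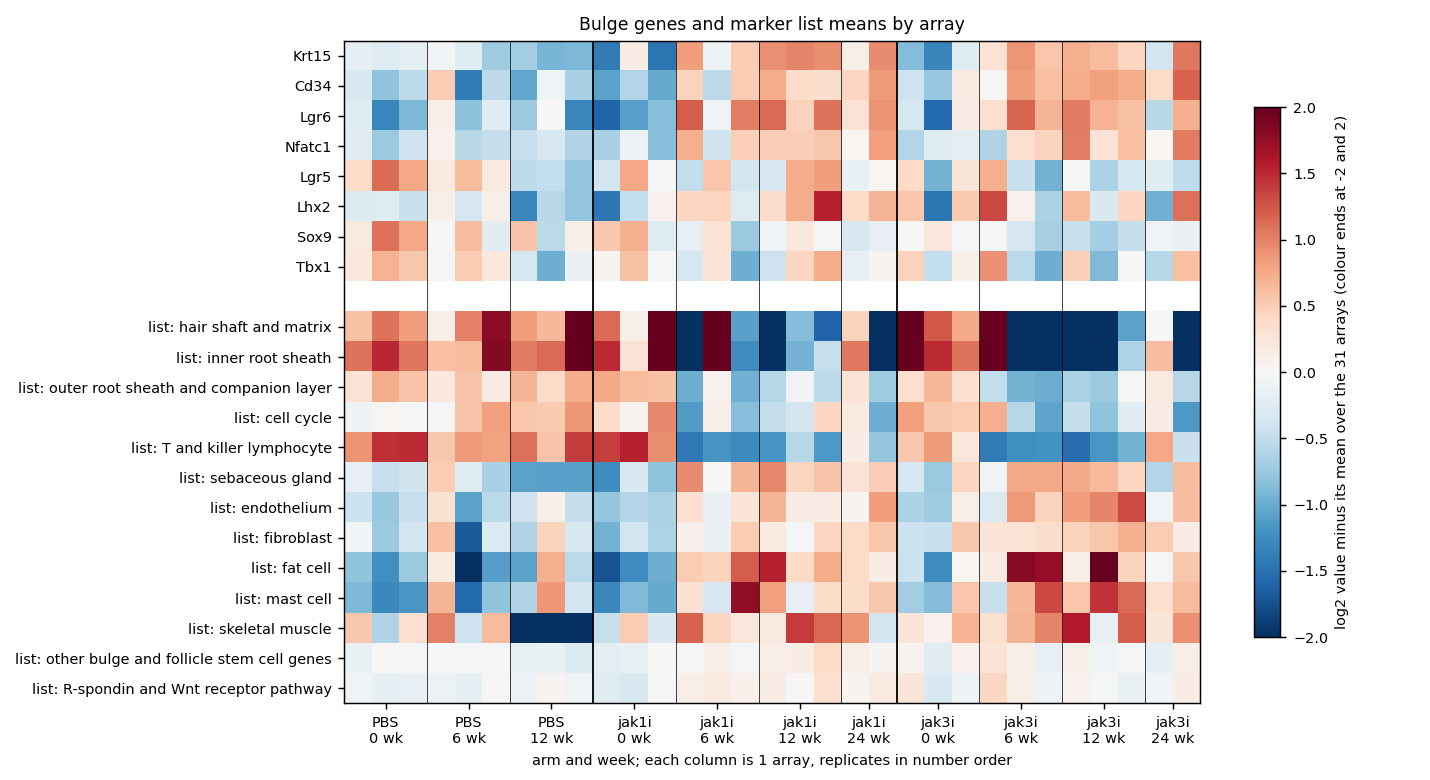
Each column is 1 of the 31 arrays, grouped by arm and week, and each row is 1 of the 8 genes or the mean of a marker list. Colour gives the log2 value minus its mean over the 31 arrays, with the colour scale ending at -2 and 2. The arrays jak1i replicate 2 and jak3i replicate 1 at 6 weeks are dark red for hair shaft and matrix and pale or blue for Krt15, Cd34, Lgr6 and Nfatc1.

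The arrays in question also stood apart in hair shaft genes. Jak1i replicate 2 of 6 weeks had a hair shaft and matrix list mean of 2.40 and jak3i replicate 1 of 6 weeks one of 3.10, against -2.37 to -1.09 in the other 6-week inhibitor arrays. Each of these 2 arrays had the lowest Krt15, Cd34, Lgr6 and Nfatc1 and the highest Lgr5 and Tbx1 of its group. At 24 weeks the same held for Krt15, Cd34, Lgr6 and Nfatc1. Replicate 1 had a hair shaft mean of 0.46 under jak1i and 0.01 under jak3i, replicate 2 had -2.33 and -2.02, and Krt15 read 12.73 against 13.54 under jak1i and 12.21 against 13.66 under jak3i. Over the 31 arrays the Pearson correlation of the hair shaft mean was -0.90 with Nfatc1, -0.79 with Krt15, -0.78 with Cd34 and -0.73 with Lgr6, but 0.34 with Lgr5, 0.33 with Tbx1 and -0.22 with Lhx2. Other lists varied as closely with these genes. The sebaceous gland mean had 0.90 with Krt15 (0.83 after subtraction of group means), 0.88 with Lgr6 and 0.82 with Nfatc1. For Lgr6 the coefficients were -0.91 with the outer root sheath and companion list and -0.90 with the T and killer lymphocyte list. The cell cycle mean had -0.83 with Nfatc1 and -0.79 with Krt15, and the inner root sheath mean had -0.87 and -0.79. These are descriptions over arrays that share groups, and the part of these lists in the results was not tested. Fits with the hair shaft or muscle mean as a covariate are given below. Both means moved with the groups compared with PBS at 12 weeks, so those fits cannot separate them.

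With the hair shaft mean as a covariate, the count of the 8 genes higher than PBS at 12 weeks went from 4 to 2 under jak1i and from 4 to 0 under jak3i. Calls either way over all 18193 genes fell as well, from 2431 to 583 and from 3148 to 204. Under jak1i the adjusted difference was 1.22 (SE 0.32, adjusted p 0.0401) for Krt15 and 1.49 (SE 0.40, adjusted p 0.0419) for Lgr5. Of the jak1i calls that were lost, Lgr6 was at 0.99 (SE 0.41, adjusted p 0.191) and Lhx2, with a larger difference than before, at 2.10 (SE 0.60, adjusted p 0.0552). Against the start of jak1i, Krt15 at 1.29 (adjusted p 0.0291) and Lgr6 at 1.49 (adjusted p 0.0415) still passed, where the calls of all genes went from 2958 to 914. Under jak3i the difference from PBS was 0.78 (SE 0.33, adjusted p 0.237) for Krt15, 0.77 (SE 0.43, adjusted p 0.365) for Lgr6 and 0.72 (SE 0.34, adjusted p 0.284) for Cd34. Nfatc1 went to 0.34 under jak1i and 0.36 under jak3i. The hair shaft mean moved with the treatment groups at 12 weeks, so the parts of both in these differences cannot be told apart by this fit.

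Within the PBS arm none of the 8 genes passed the test. Between 0 and 12 weeks of PBS 0 of 8 genes were called, where 2.28% of all genes were called either way. An unadjusted p under 0.05 was reached by 3 of the 8, beside 2960 of all 18193 genes. The median difference of the 8 was -0.59. The arrays of the 2 times did not overlap for Lgr5 at -1.35 (SE 0.40, adjusted p 0.0812), Tbx1 at -0.97 (adjusted p 0.275), Krt15 at -0.62 (adjusted p 0.428) and Lhx2 at -0.56 (adjusted p 0.671), and 23.9% of all genes did not overlap. Between 0 and 6 weeks of PBS 0 of 8 were called, where 0.00550% of all genes were called either way, and 0 of 8 had an unadjusted p under 0.05. With PBS of 6 weeks in place of 12 weeks as the control, 0 of 8 genes were called at 12 weeks for either inhibitor, and few of all 18193 genes were, 15 for jak1i and 419 for jak3i. The differences were then 1.28 (adjusted p 0.112) for Krt15 and 1.21 (adjusted p 0.181) for Lgr6 under jak1i. They were 0.94 (adjusted p 0.131) for Krt15, 1.09 (adjusted p 0.137) for Lgr6 and 1.24 (adjusted p 0.0624) for Cd34 under jak3i. With the skeletal muscle mean, low in PBS skin of 12 weeks, as a covariate limma called 0 of 8 for either inhibitor against PBS of 12 weeks, and 0 of all 18193 genes, so this fit does not set the 8 genes apart from others. Krt15 was at 1.21 (SE 0.78) for jak1i and 0.87 (SE 0.78) for jak3i in that fit.

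Before treatment none of the 8 genes was called between the arms. At 0 weeks 0 of 8 genes were called for jak1i against PBS (0% of all genes called either way) and 0 of 8 for jak3i against PBS (0% of all genes), while limma gave 917 and 1378 genes an unadjusted p under 0.05, of the 8 genes 0 and 2. Krt15 differed from PBS by -0.69 (95% interval -1.45 to 0.08) in the jak1i arm and by -0.59 (95% interval -1.35 to 0.18) in the jak3i arm. The 2 genes at an unadjusted p under 0.05 were lower in the jak3i arm than in PBS, Lgr5 by -0.86 (95% interval -1.70 to -0.02) and Sox9 by -0.61 (95% interval -1.22 to -0.01), both with an adjusted p of 0.659. Taking the change from 0 to 12 weeks against the change in PBS, 1 of 8 genes was higher for jak1i, Krt15 by 2.47 (SE 0.52, adjusted p 0.0140), where 2.99% of all genes were called higher. For jak3i 1 of 8 was higher, again Krt15, by 2.03 (SE 0.52, adjusted p 0.0357), where 2.59% of all genes were. Of all jak3i calls in this contrast 57.0% were higher, and 36.6% after centring the arrays. The jak1i value passed with each of the 12 arrays left out in turn, up to an adjusted p of 0.0413. The jak3i value passed only without jak3i replicate 3 of 0 or 12 weeks or PBS replicate 2 of 12 weeks, and its adjusted p was up to 0.0992 otherwise. At an unadjusted p under 0.05, 6 of the 8 genes passed for jak1i and 3 for jak3i, beside 4614 and 4480 of all 18193 genes. For jak1i the next after Krt15 were Lgr6 at 1.93 (adjusted p 0.0607), Lgr5 at 1.64 (0.0790), Cd34 at 1.41 (0.0941) and Lhx2 at 2.06 (0.0976).

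At 24 weeks, with 2 arrays an arm, 0 of 8 genes were called against the start of jak1i (1.19% of all genes called either way). Against the start of jak3i it was 0 of 8 as well (0.110% of all genes). An unadjusted p under 0.05 was reached by 4 and 3 of the 8, beside 3709 and 3122 of all 18193 genes. Values against the start were 1.44 for Krt15, 1.53 for Cd34 and 1.77 for Lgr6 under jak1i, with adjusted p of 0.0654, 0.057 and 0.0591. Under jak3i they were 1.14, 1.11 and 0.66, with adjusted p of 0.185, 0.194 and 0.493. Without jak3i replicate 1 of 24 weeks Krt15 differed by 1.86 (adjusted p 0.046) from the jak3i start. Between 12 and 24 weeks 0 of 8 genes were called for jak1i (0% of all genes) and 0 of 8 for jak3i (0.0330% of all genes), while 610 and 938 genes, and 0 of the 8 in each case, had an unadjusted p under 0.05. The 95% interval of that difference was -1.27 to 0.45 for Krt15 and -1.31 to 0.72 for Lgr6 under jak1i.

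Jak1i and jak3i were compared with each other at 6, 12 and 24 weeks, and 0 of 8 genes were called at any of these times. In each of the 3 comparisons 0% of all genes were called either way, while limma gave 470, 1087 and 114 genes an unadjusted p under 0.05. At 12 weeks jak1i minus jak3i was 0.34 for Krt15 (95% interval -0.42 to 1.11), -0.28 for Cd34 (-1.05 to 0.48) and 0.12 for Lgr6 (-0.79 to 1.02). It was 0.73 for Lgr5 (-0.10 to 1.57), 0.63 for Lhx2 (-0.50 to 1.76), 0.58 for Sox9 (-0.02 to 1.19), 0.39 for Tbx1 (-0.52 to 1.30) and -0.13 for Nfatc1 (-0.78 to 0.52). At an unadjusted p under 0.05, 0 of the 8 genes passed at each time. A p that misses the threshold does not show that the inhibitors act alike, and no dose is named. All 3 jak1i arrays lay above all 3 jak3i arrays for Krt15 and Sox9, and 15.8% of all genes did not overlap between these groups. At 6 weeks the differences of the 8 genes lay between -0.34 (Cd34) and 0.20 (Nfatc1), and at 24 weeks between -0.14 (Cd34) and 0.51 (Lgr6).

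Over the 11 groups, ranked by group mean, neighbouring groups overlapped for each gene and pair except jak3i and jak1i at 12 weeks for Krt15. The 8 genes did not vary as a unit. Krt15, Cd34, Lgr6 and Nfatc1 correlated with each other over the 31 arrays, with Pearson coefficients from 0.80 (Krt15 and Cd34) to 0.87 (Cd34 with Lgr6 and with Nfatc1). After subtraction of group means those for Cd34 were 0.79 with Lgr6 and 0.71 with Nfatc1. Lgr5 went with Tbx1 (0.80, and 0.77 within groups) and not with Krt15 (0.08) or Lgr6 (-0.15). Sox9 ran opposite to Cd34 and to Lgr6 (-0.69 each), and Lhx2 had 0.67 with Lgr6 and 0.50 with Tbx1. Within groups Lhx2 had 0.71 with Tbx1 and 0.61 with Lgr5, but 0.48 with Lgr6, 0.33 with Krt15, 0.21 with Cd34 and 0.03 with Nfatc1. The arrays share groups, so these coefficients are a description.

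The named genes most like each member over the 31 arrays were found by the same Pearson coefficient. For Krt15 they were Clstn1 (0.96), Cracr2b (0.94) and Arhgap44 (0.93), for Cd34 Zeb1 (0.95), Clmp (0.95) and Gucy1a1 (0.95), and for Lgr6 Slc26a7 (0.97), Ehbp1 (0.96) and Zfyve21 (0.96). For Nfatc1 they were Nek9 (0.95), Cdh13 (0.95) and Fbxo9 (0.95), for Lhx2 Tenm2 (0.92), Ldlrad3 (0.88) and Tfap2b (0.88), and for Sox9 Actn1 (0.92), Actn4 (0.91) and Fjx1 (0.90). Lgr5 and Tbx1 had lower best matches, Slc35g1 (0.83) and Stox2 (0.80) for Lgr5, Hspa2 (0.81) and Agrn (0.81) for Tbx1, and each other at 0.80.

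Of 19 measured genes in a list of other bulge and follicle stem cell genes, 3 were higher under each inhibitor than under PBS at 12 weeks and none lower, where 6.85% of all genes were called higher under jak1i and 10.0% under jak3i, with medians of 0.27 for jak1i and 0.16 for jak3i. The 3 were the same, Fgf18, a growth factor that holds follicles in telogen, Col17a1, the hemidesmosome collagen, and Nfib, a transcription factor of follicle stem cells. Fgf18 differed from PBS by 3.19 (SE 0.69, adjusted p 0.00593) under jak1i and by 2.85 (adjusted p 0.0102) under jak3i. Col17a1 differed by 1.0 (adjusted p 0.0146) and 0.80 (adjusted p 0.0365), and Nfib by 0.70 (adjusted p 0.00409) and 0.47 (adjusted p 0.0294). Against the start the same 3 were higher under jak1i, where 9.76% of all genes were called higher. Under jak3i Col17a1 alone was higher, where 7.41% of all genes were called higher. Fgf18 differed there by 2.04 (adjusted p 0.0573) and Nfib by 0.20 (adjusted p 0.337).

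The 12 genes of the R-spondin and Wnt receptor pathway gave 0 calls by limma against PBS at 12 weeks for either inhibitor. Their medians were 0.11 for jak1i and -0.07 for jak3i. An unadjusted p under 0.05 was reached by 3 and 2 of them, beside 5436 and 6102 of all 18193 genes. Against the start 3 of 12 were higher under jak1i, where 9.76% of all genes were called higher. The 3 were the R-spondin genes Rspo3 by 1.74 (adjusted p 0.0193) and Rspo1 by 1.47 (adjusted p 0.0239), and Axin2, a target and inhibitor of Wnt signalling, by 0.63 (adjusted p 0.0386). Under jak3i Axin2 was higher by 0.65 (adjusted p 0.0472) and Rspo2 fell by 0.27 (adjusted p 0.0468). In that comparison 7.41% of all genes were called higher and 2.85% lower. Against PBS at 12 weeks limma called 6.85% of all genes higher and 6.51% lower under jak1i. Under jak3i the shares were 10.0% and 7.28%. In that comparison, of the follicle's other layers, the hair shaft and matrix list had medians of -3.06 under jak1i and -3.67 under jak3i. Of its 15 genes 0 and 3 were called lower, and 9 and 13 had an unadjusted p under 0.05. The outer root sheath and companion list had 1 of 8 lower under jak1i and 3 of 8 under jak3i, while sebaceous gland genes were higher for 4 and 5 of 7. Inner root sheath genes had medians of -3.30 and -4.71, with 1 of 9 called higher under jak1i and 6 of 9 lower under jak3i. Cell cycle genes had medians of -0.82 and -1.18, with 0 and 2 of 8 called lower and 3 and 8 at an unadjusted p under 0.05. Fat cell, fibroblast, mast cell and epidermal genes, with 7, 9, 8 and 6 measured, gave 0 calls by limma under either inhibitor. Their medians were 1.12 and 1.04, 0.40 and 0.66, 0.58 and 1.20, and -0.37 and -0.16. In these 4 lists 5 genes under jak1i and 9 under jak3i had an unadjusted p under 0.05. Of all 18193 genes 5436 and 6102 did.

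**Figure D4:**
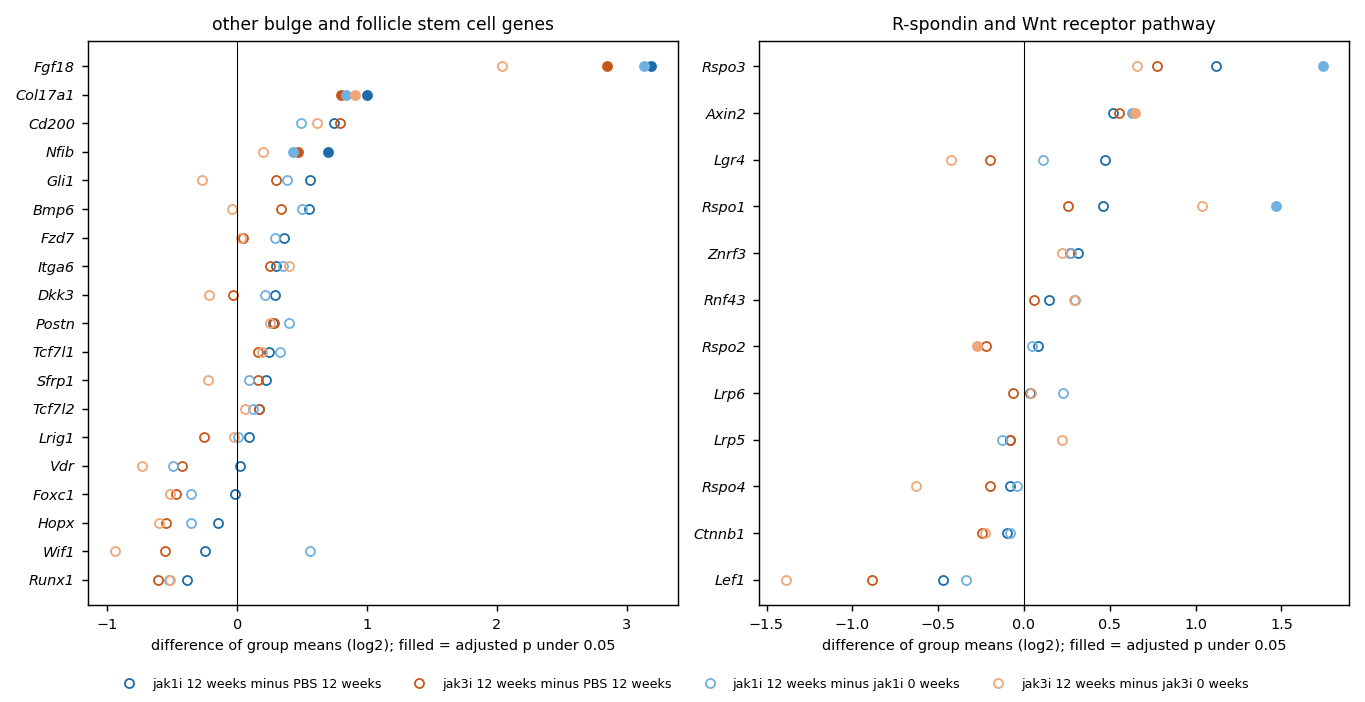
Difference of group means at 12 weeks (log2, x axis) for the measured genes of the list of other bulge and follicle stem cell genes (left) and of the R-spondin and Wnt receptor pathway (right), in 4 comparisons. Filled points have an adjusted p under 0.05. Fgf18 lies farthest from 0, between 2.04 and 3.19.

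Other probe sets were measured for 4 of the 8 genes. For Nfatc1, with 5 probe sets, the 4 others differed from PBS at 12 weeks by 0.34 to 1.14 under jak1i, where 2 passed among all 34945 probe sets (0.84, adjusted p 0.0472, and 1.14, adjusted p 0.0185). Under jak3i they differed by 0.06 to 0.64, and none passed. The second Lgr6 probe set differed by 0.31 (adjusted p 0.235) under jak1i and 0.21 (adjusted p 0.430) under jak3i from PBS, and by 0.61 (adjusted p 0.0206) from the start under jak1i. The second Lgr5 probe set gave 0.22 and -0.14 against PBS, and the 2 others of Sox9 gave 0.06 and -0.18 under jak1i and -0.47 and -0.23 under jak3i. Some of these probe sets were dim, with every group mean below the median of all values, 6.18. They were the second sets of Lgr6 (5.24 to 5.96) and Lgr5 (4.86 to 5.58), and a further set of Sox9 (4.11 to 4.57). A set of Nfatc1 (5.58 to 6.15), the one at 0.34 and 0.06, was dim as well. Dim signal limits these sets as a check. Krt15, Cd34, Lhx2 and Tbx1 had 1 probe set each.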

How the data were processed

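Skin RNA of 31 samples was labelled for Affymetrix arrays, per the labels' protocols. The deposited values are log2 signals that the authors made with RMA, per the submitters' processing notes (version not given in the sources used here). RMA equalises the distributions of arrays, so a shift shared by most genes is removed. Array medians were 6.05 to 6.24. Scan dates and detection calls were not used.

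Of 45101 probe sets, 34945 named a single gene and were no controls. They covered 18193 genes. The probe set of highest mean stood for a gene. A single model of 11 group means was fitted with limma 3.58.1 in R 4.3.3, and 21 contrasts were tested with Benjamini-Hochberg adjustment at 0.05 over all genes, after a check on artificial data. The 8 genes, the gene lists and the tests were chosen with earlier results of these data known, and no value here is independent support of those.

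The 8 genes are always named. Of the lists of other bulge genes and of the R-spondin and Wnt receptor pathway, genes called at 12 weeks are named, and for each member the 3 named genes most like it. Pecam1 and Cdh5 were named after their values were seen. Marker lists were outer root sheath and companion layer, hair shaft and matrix, inner root sheath, epidermis, cell cycle, endothelium, fibroblast, fat cell, sebaceous gland, mast cell, T and killer lymphocyte, and skeletal muscle.

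Other settings were centring arrays, leaving out dim genes, the mean of probe sets, other probe sets, a trended and robust variance, the compared arrays only, a replicate block, hair shaft or muscle covariates, PBS of 6 weeks as the control and leaving out each array.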

Additional observations from a re-analysis of the deposited data

Results flagged for a closer look

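The change from 0 to 12 weeks differed between treated and PBS skin for Krt15, by a test of the difference of changes. It was the 1 gene of the 8 past an adjusted p of 0.05 for each inhibitor. An unadjusted p under 0.05 was reached by 6 of the 8 for jak1i and 3 for jak3i. Of all 18193 genes, 4614 and 4480 reached it. Other settings called up to 5 of the 8 for jak1i and 2 for jak3i, both in a fit of the compared arrays only. In that fit the calls over all genes rose as well, from 1247 to 2239 and from 827 to 1894. For jak1i the difference was 2.47 on the log2 scale (SE 0.52, limma adjusted p 0.0140). Krt15 was higher at 12 weeks than the mean of its start in 3 of 3 jak1i arrays and lower in 3 of 3 PBS arrays. For jak3i the difference was 2.03 (SE 0.52, adjusted p 0.0357), with 3 of 3 jak3i arrays higher. Both values use the same PBS arrays. With the hair shaft mean as a covariate the jak3i value was 1.24 (adjusted p 0.295), and with the skeletal muscle mean as a covariate the values were 1.88 (adjusted p 0.838) and 1.49 (adjusted p 0.817).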

How the results depend on the processing

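Of 19 calls of a gene in a comparison, 4 held whichever single array was left out: Krt15 under jak1i against PBS, against the start and in the change against PBS, and Lgr6 under jak1i against the start. With 1 array left out, the count of the 8 genes called ranged from 1 to 4 for jak1i and 0 to 5 for jak3i against PBS at 12 weeks, and from 0 to 1 for jak3i against PBS at 6 weeks. Against the start it ranged from 0 to 4 for jak1i and 0 to 2 for jak3i at 6 weeks, 2 to 4 and 0 to 3 at 12 weeks, and 0 to 1 for jak3i at 24 weeks. For the change against PBS it was 1 to 2 for jak1i and 0 to 1 for jak3i. Calls over all 18193 genes varied as well. Against PBS at 12 weeks they ran from 597 to 2940 for jak1i and from 854 to 3547 for jak3i. For the changes they ran from 276 to 1916 and from 0 to 1182. Against PBS at 12 weeks the jak1i count was 1 without jak1i replicate 3 or PBS replicate 1 or 3. Calls of all genes were then 929, 1335 and 597. The jak1i count was 2 without jak1i replicate 1 or 2, with 1222 and 1400 of all genes called, against 2431 with every array. The jak3i count was 0 without jak3i replicate 1 or PBS replicate 3, 1 without PBS replicate 1 and 2 without jak3i replicate 2. In that order 854, 951, 1198 and 1637 of all genes were called, against 3148 with every array. Against the start at 12 weeks the jak1i count was 2 without replicate 1 of 0 or 12 weeks, and the jak3i count was 0 without replicate 1 or 2 of 0 or 12 weeks. In these 4 jak3i fits 333, 1, 14 and 21 of all 18193 genes were called either way, against 1867 with every array. The jak1i fits without replicate 1 of 0 or 12 weeks gave 1411 and 1168, against 2958 with every array.

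With the hair shaft mean as a covariate the counts were 2 for jak1i and 0 for jak3i against PBS at 12 weeks, 2 and 0 against the start at 12 weeks, 0 for jak3i against the start at 6 weeks, 1 for PBS at 12 against 0 weeks (Lgr5, -1.41, adjusted p 0.0297), and 2 for jak1i and 0 for jak3i in the change against PBS. All-gene calls with this covariate were 583 and 204 against PBS, 914 and 0 against the start, and 231 and 0 for the changes. They were 232 for jak3i against the start at 6 weeks and 728 for PBS at 12 against 0 weeks. With the skeletal muscle mean the counts were 0 and 0 against PBS at 12 weeks, 2 and 1 against the start at 12 weeks, 0 for jak3i against the start at 6 weeks, and 0 and 0 for the changes. Of all 18193 genes 0 were called there against PBS at 12 weeks and 0 for the changes. Against the start 1614 and 894 were called at 12 weeks, and 414 for jak3i at 6 weeks. The signs of Nfatc1 under jak1i (-0.10), Cd34 under jak3i (-0.26) and Lgr6 under jak3i (-0.022) against PBS were reversed. Muscle genes were low in all PBS arrays of 12 weeks, so this covariate and that group overlap. PBS of 6 weeks as the control gave 0 and 0, with 15 and 419 of all genes called. A fit of the compared arrays only gave 1 for jak1i and 0 for jak3i against the start at 6 weeks. All-gene calls there were 672 and 59. It gave 4 for jak3i against the start at 12 weeks (1408 of all genes) and 1 for PBS at 12 against 0 weeks (165). For the changes it gave 5 and 2, with 2239 and 1894 of all genes called. Leaving out dim genes, which reduces the genes tested to 12825, gave 2 for jak1i at 24 weeks, 4 for jak3i at 12 weeks against the start, and 2 for the jak1i change. Of those 12825 genes 526, 2161 and 1491 were called, against 216, 1867 and 1247 of 18193 in the main fit. The mean of probe sets gave 1 for jak3i against its start at 12 weeks and 1 for PBS at 12 against 0 weeks. All-gene calls there were 1471 and 353. A trended and robust variance gave 1 for jak3i against its start at 12 weeks, with 1799 of all genes called. A further Nfatc1 probe set was at -0.063 (adjusted p 0.823) for jak3i at 12 weeks against the start, opposite to the main one. That set was dim, with group means from 5.58 to 6.15, below the median of all values. Except where construction shows it, the cause was not tested.

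Same-numbered arrays of an arm did not deviate together, with correlations from -0.61 to 0.49 in 39 pairs, 12 of them over 0.1, and 9 of 31 arrays correlated best with their own number. As a hint only, a replicate block gave 0 in place of 1 for jak3i at 6 weeks and 1 in place of 2 at 12 weeks against the start. It also left Nfatc1 under jak1i against PBS at an adjusted p of 0.0567. Centring arrays added 2 calls of the 8 genes and ended 1 over the 21 contrasts. It moved the median of all genes by over 0.1 in 6 of these contrasts. For jak3i at 12 weeks the shift was -0.14 against PBS and -0.17 against its start.

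No group has more than 3 arrays, the PBS group of 12 weeks stands apart in muscle genes, and hair shaft genes move with most calls.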
